A study of Mus musculus with 6 samples.

Results

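The genes of glycolysis and of the transcriptional response to low oxygen were followed in 6 RNA-seq libraries of the mouse macrophage line RAW264.7, which was grown out from an ascites tumour raised with Abelson leukaemia virus. The set holds 37 genes: glucose carriers, glycolytic enzymes, lactate dehydrogenases, pyruvate dehydrogenase with the kinases that switch it off, hypoxia-inducible factor 1α (HIF-1α) with its oxygen-dependent control, and some of its best-known targets. They were chosen by gene symbol and matched to 37 of the 55401 gene models in each count table, and 36 had enough counts to be tested. The series asks what NOP16 does in macrophages. Nop16 encodes a nucleolar protein that the series title describes as a histone mimic acting on methylation of histone H3 at lysine 27.

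The study set 3 control siRNA libraries (genotype label WT) against 3 Nop16 siRNA libraries (genotype label Nop16 KD). The treatment text given to every sample names Nop16 siRNA at 20 nM for 3 days with the transfection reagent Lipofectamine RNAi Max, while the treatment tag reads "no" for all 6 samples. The sources used here do not give what the controls were transfected with, or the number and sequence of the siRNAs. All cells were kept in high-glucose medium, and no label names an oxygen level. All 6 libraries come from this 1 line, and no label says that replicates were separate cultures. The p-values therefore speak for the scatter of these 6 samples alone, and that scatter may be technical.

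Glycolysis takes up glucose through carrier proteins, traps it as glucose 6-phosphate, splits the sugar and oxidises the fragments to pyruvate. Pyruvate then goes either to lactate or, through the pyruvate dehydrogenase complex, into the mitochondria, and pyruvate dehydrogenase kinases close the second route. When oxygen is low, HIF-1α escapes hydroxylation and destruction and raises transcription of many of these genes. Activated macrophages are known for running glycolysis at a high rate even with oxygen present.

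Total counts ran from 15601477 to 23061922 per library, with all 3 controls deeper than any Nop16 siRNA library. Values below are counts scaled to the library total (CPM), given as mean ± SD over 3 libraries, and log2 changes are Nop16 siRNA minus control siRNA with TMM scaling. Nop16 itself had 388, 437 and 402 counts in the control libraries and 61, 72 and 84 in the Nop16 siRNA libraries, so that 22.4% of the control level was left (log2 change -2.16, SE 0.120, edgeR adjusted p = 2.94e-23). Of 8 macrophage markers all were detected, 5 rose and 1 fell, and their summed level was 4934 to 5217 CPM in the controls and 7446 to 7784 CPM after Nop16 siRNA. Lyz2, the lysozyme gene, carried most of that difference (1151 ± 153 to 2908 ± 176 CPM), and without it the sums were 3885 to 3925 and 4693 to 4791 CPM. Markers of neutrophils, T or NK cells, B cells, fibroblasts, epithelium and endothelium summed to at most 2.56 CPM per list in any library. Only S100a8, Pdgfra and Cdh5 among them had enough counts to be tested, and none of these passed. S100a9, Cd3e, Cd8a, Nkg7, Col1a2, Col3a1, Krt8 and Krt18 were among the markers with no count in any library. The part that the shift in macrophage markers has in the values below was not tested. These are bulk samples, in which fewer cells with a transcript and less of it per cell cannot be told apart.

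Of the 36 tested genes, 17 were higher and 6 were lower after Nop16 siRNA at an edgeR quasi-likelihood adjusted p below 0.05, and 13 did not pass. Over all 14269 tested genes, 45.4% were called, which splits into 23.0% higher and 22.4% lower. Within the set 47.2% were higher and 16.7% lower. Abundant genes are called more often: among the 6206 tested genes that averaged 30 CPM or more, 34.0% were higher and 30.3% lower (64.4% in all), and among the 30 genes of the set at that level 15 were higher and 5 (16.7%) lower, 66.7% in all. The share called in either direction was thus close to that of all tested genes averaging 30 CPM or more, and the split between directions leaned to higher. That bound is a floor and not a match of level, and some genes of the set lie far above it (Pkm at 3446 CPM in the controls). In CPM, 18 of the 36 were higher and 10 lower in all 3 Nop16 siRNA libraries than in all 3 controls, 28 in all, where 24.1%, 28.5% and 52.6% of all tested genes were. The changes were small. Their median was 0.16 on the log2 scale against -0.00020 for all genes tested, and the median size without its sign was 0.20 against 0.21.

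By step, both glucose carriers and 2 of 3 hexokinases rose, with no fall. Of 9 upper glycolytic genes 6 rose and 2 fell, and of the 6 from Gapdh to Pkm 2 rose and 1 fell. Neither lactate dehydrogenase passed, and of 6 genes of pyruvate dehydrogenase and its kinases 3 fell and 0 rose. Differences between these small groups were not tested. The 22 genes from glucose uptake to lactate summed to 14090 to 14383 CPM in the controls and 14261 to 14512 CPM after Nop16 siRNA, ranges that overlap. Pkm and Aldoa, the genes of the set with the highest CPM at their own models, were the largest parts of those sums. Gapdh entered them at its own model only. Its pseudogenes and coding copies, outside the sums, measured 15615 ± 163 CPM in the controls and 12888 ± 291 CPM after Nop16 siRNA. Fragments can count at several of these loci, and the overlapping ranges leave out the fall there.

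**Figure D1:**
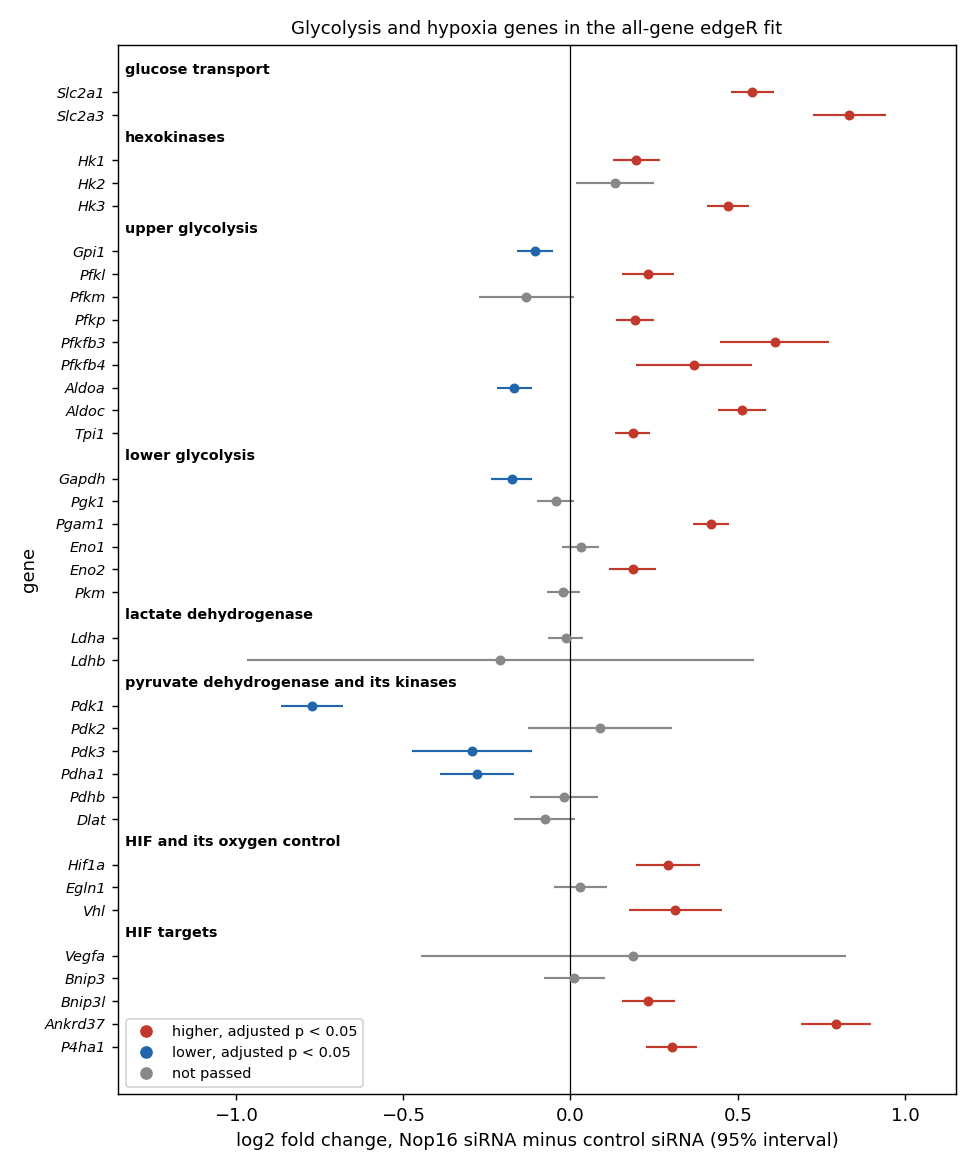
Log2 fold change of the 36 tested genes, Nop16 siRNA minus control siRNA, with 95% intervals, grouped by role. Red points passed as higher (17 genes), blue points as lower (6 genes) and grey points did not pass; Slc2a3 and Ankrd37 lie farthest to the right and Pdk1 farthest to the left.

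Both glucose carriers rose. Slc2a1 (ENSMUSG00000028645, chr4:119108711-119137983, plus strand, GRCm38) encodes GLUT1, the carrier that most cells use for basal glucose uptake. It stood at 186, 191 and 192 CPM in the control siRNA libraries and 278, 274 and 265 CPM in the Nop16 siRNA libraries. Slc2a3 (chr6:122727809-122801640, minus strand), which encodes the high-affinity carrier GLUT3, stood at 40.6, 36.7 and 40.5 CPM in the control siRNA libraries and 65.9, 68.2 and 72.2 CPM in the Nop16 siRNA libraries. For both carriers the lowest Nop16 siRNA library lay well above the highest control library. Slc2a1 rose 1.46-fold (log2 change 0.54, SE 0.0328, edgeR adjusted p = 9.24e-22) and Slc2a3 1.78-fold (log2 change 0.83, SE 0.0562, edgeR adjusted p = 1.14e-19). Per length of transcript model Slc2a1 stayed the more abundant carrier, moving from 54.1 to 77.6 CPM per kb while Slc2a3 moved from 5.42 to 9.49 CPM per kb.

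Hexokinases phosphorylate glucose and so keep it in the cell. Hk3, an isoform found mainly in myeloid cells, was the most abundant of the 3 in these libraries, with 199, 200.0 and 196 CPM in the control siRNA libraries and 272, 270.4 and 271 CPM in the Nop16 siRNA libraries. The Nop16 siRNA libraries agreed to within about 1 CPM of their mean, and no library of one group reached the other. Hk3 rose 1.39-fold (log2 change 0.47, SE 0.0320, edgeR adjusted p = 1.62e-19). Hk1, the widely expressed mitochondrial isoform, rose from 153 ± 3.65 to 173 ± 5.74 CPM (log2 0.20, adjusted p = 5.59e-06). Hk2, the isoform best known as a HIF-1α target, measured 43.6 ± 0.170 and 47.1 ± 3.28 CPM without passing the test (log2 0.13, edgeR adjusted p = 0.0607). Its groups did not overlap, but only just, with the highest control at 43.7 CPM and the lowest Nop16 siRNA library at 43.9 CPM. Without the third Nop16 siRNA library Hk2 passed (log2 0.18, adjusted p = 0.0268). Summed per length, the hexokinases measured 79.2 ± 0.141 CPM per kb in the controls and 101.8 ± 0.741 after Nop16 siRNA, and Hk3 made up 68.1 ± 0.580% and 72.3 ± 0.691% of that sum.

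In upper glycolysis both Pfkfb genes of the set, which act on phosphofructokinase, rose. Pfkfb3 and Pfkfb4 encode enzymes that make and break fructose 2,6-bisphosphate, the small molecule that turns phosphofructokinase on. Pfkfb3 measured 16.1, 17.4 and 19.0 CPM in the control siRNA libraries and 27.0, 26.3 and 25.5 CPM in the Nop16 siRNA libraries. Pfkfb4 measured 17.2, 22.2 and 21.4 CPM in the control siRNA libraries and 24.7, 28.8 and 23.8 CPM in the Nop16 siRNA libraries. Pfkfb3 groups were far apart, while the lowest Pfkfb4 value after Nop16 siRNA lay only just above the highest control. Pfkfb3 rose 1.53-fold (log2 change 0.61, SE 0.0830, edgeR adjusted p = 7.77e-09) and Pfkfb4 1.29-fold (log2 change 0.37, SE 0.0887, edgeR adjusted p = 0.000504). Their relatives Pfkfb1 and Pfkfb2, outside the set and added after their values were seen, did not pass (log2 -0.19 and -0.08, edgeR adjusted p = 0.468 and 0.535).

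The phosphofructokinases themselves moved less. Pfkp, the platelet-type subunit, rose from 658 ± 19.4 to 741 ± 24.9 CPM (log2 0.19, adjusted p = 9.04e-08), and Pfkl, the liver-type subunit, from 116 ± 3.75 to 135 ± 5.11 CPM (log2 0.23, adjusted p = 1.19e-06). Pfkm, the muscle-type subunit, measured 33.1 ± 2.29 and 29.7 ± 1.23 CPM and did not pass (log2 -0.13, adjusted p = 0.134), but did without the first control library (log2 -0.19, adjusted p = 0.0419). A stretch of 10.2% of the Pfkm exons is shared with the overlapping model Gm26513. Tpi1, which interconverts the triose phosphates, rose from 1191 ± 21.1 to 1333 ± 2.48 CPM (log2 0.19, adjusted p = 2.8e-08). Gpi1, which turns glucose 6-phosphate into fructose 6-phosphate, fell from 958 ± 24.3 to 877 ± 15.9 CPM (log2 -0.11, adjusted p = 0.00116).

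The aldolases, which split fructose 1,6-bisphosphate, went opposite ways. Aldoa (ENSMUSG00000030695, chr7:126795234-126800751, minus strand), the dominant form, measured 2991, 3045 and 3117 CPM in the control siRNA libraries and 2750.1, 2598 and 2677 CPM in the Nop16 siRNA libraries. Aldoc (chr11:78322968-78327781, plus strand), the form named for brain, measured 121, 124 and 125 CPM in the control siRNA libraries and 177, 171 and 172 CPM in the Nop16 siRNA libraries. Every Aldoa value after Nop16 siRNA was below every control value and every Aldoc value was above. Aldoa fell (log2 change -0.17, SE 0.0265, edgeR adjusted p = 2.95e-07) and Aldoc rose 1.43-fold (log2 change 0.51, SE 0.0362, edgeR adjusted p = 8.38e-19). Aldoc remained the minor form, at 3.49 ± 0.0254% of aldolase CPM per kb in the controls and 5.47 ± 0.0747% after Nop16 siRNA. A second gene model that carries the Aldoa symbol, ENSMUSG00000114515, measured 3.30 ± 0.338 and 2.17 ± 0.892 CPM (log2 -0.58, adjusted p = 0.0442).

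**Figure D2:**
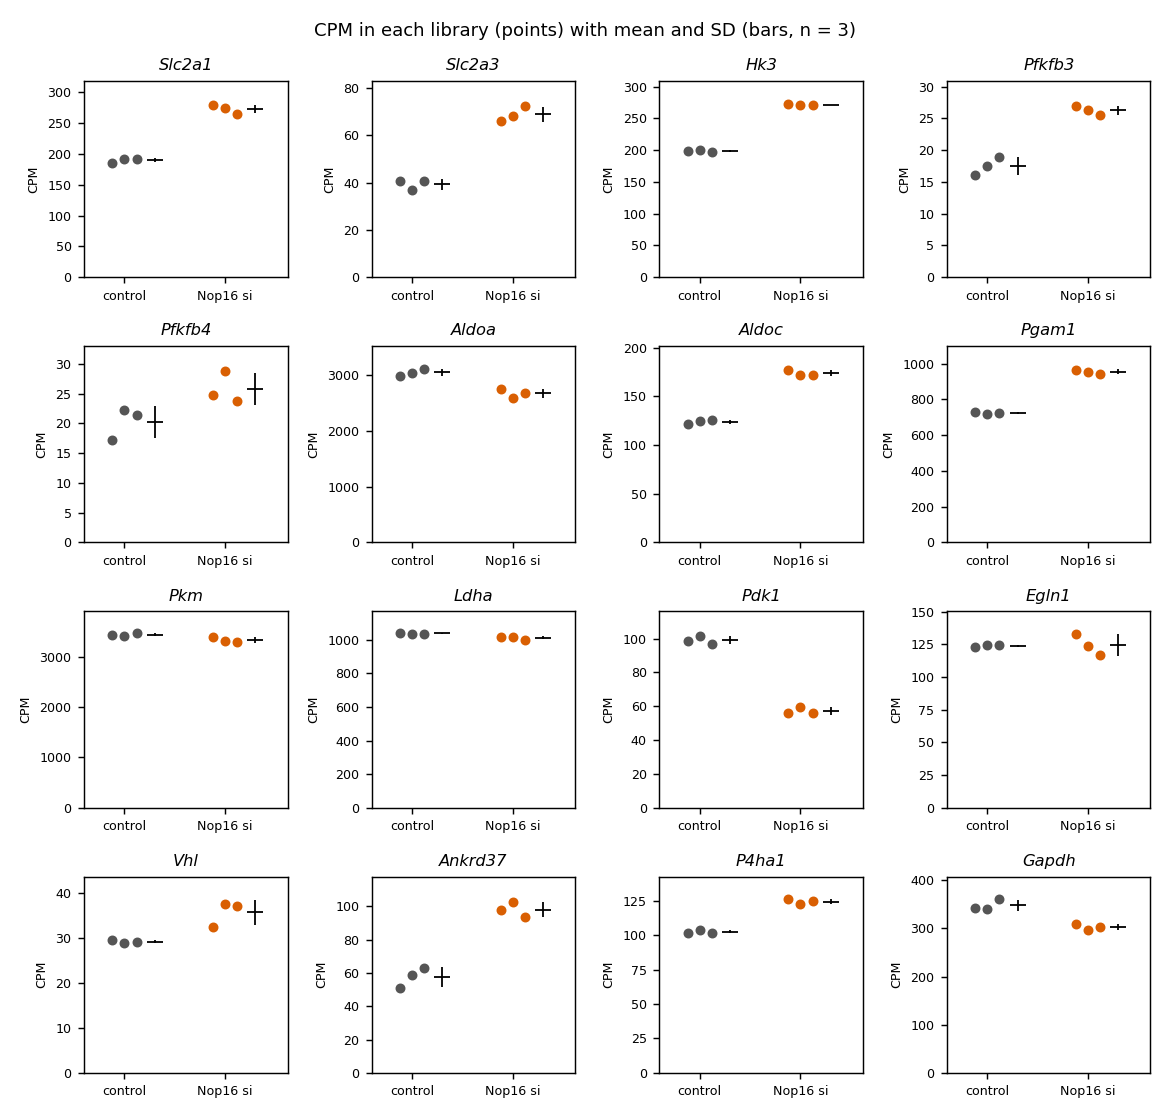
CPM of 16 genes in each library (points) with mean and SD (bars, n = 3), every axis starting at 0. Slc2a1, Slc2a3, Hk3, Aldoc, Pgam1 and Ankrd37 separate upward and Pdk1 downward, while Pkm, Ldha and Egln1 stay near 1 level across libraries.

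Lower glycolysis was mixed. Pgam1, phosphoglycerate mutase, was the only gene of this step group with a log2 change above 0.3. It stood at 728, 721 and 726 CPM in the control siRNA libraries and 967, 956 and 941 CPM in the Nop16 siRNA libraries, with the groups far apart, and rose 1.34-fold (log2 change 0.42, SE 0.0272, edgeR adjusted p = 2.25e-20). Its fully identical pseudogene Pgam1-ps2, to which its fragments can also map, went from 74.7 to 98.7 CPM at the same log2 change of 0.42, so the locus of origin cannot be told apart. Eno2, the enolase named for neurons, rose from 159 ± 4.17 to 178 ± 5.59 CPM (log2 0.19, adjusted p = 1.4e-05).

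Pkm, pyruvate kinase, had the highest CPM of the set and measured 3434, 3423 and 3479.5 CPM in the control siRNA libraries and 3402, 3314 and 3307 CPM in the Nop16 siRNA libraries. The first Nop16 siRNA library lay just below the lowest control, so the groups do not overlap in CPM, yet after TMM scaling the change was -0.02 (95% interval -0.07 to 0.03, edgeR adjusted p = 0.515). The overlapping model Gm49759 shares 15.3% of the Pkm exon length. Pgk1, phosphoglycerate kinase, measured 1259 ± 49.4 and 1202 ± 7.46 CPM (log2 -0.04, adjusted p = 0.193), and Eno1, the main enolase, 509 ± 2.38 and 511 ± 6.43 CPM (log2 0.03, adjusted p = 0.411). Pgk1 passed as lower when libraries were scaled by total counts alone (log2 -0.07, adjusted p = 0.0399) or without the first control library (log2 -0.07, adjusted p = 0.0478). The copy Eno1b, 99.5% identical to Eno1, measured 285 ± 4.63 and 287 ± 4.90 CPM (log2 0.03, adjusted p = 0.456).

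Gapdh, which oxidises glyceraldehyde 3-phosphate and is often used as a loading reference, was lower after Nop16 siRNA. It measured 342, 341 and 361 CPM in the control siRNA libraries and 310.1, 296 and 304 CPM in the Nop16 siRNA libraries, with every Nop16 siRNA library below every control library, and fell by 0.18 on the log2 scale (SE 0.0312, edgeR adjusted p = 3.38e-06). Counting of multi-mapped fragments matters here: 192 pseudogenes and 2 coding genes matched the Gapdh transcript. Their summed level, 15615 ± 163 CPM in the controls and 12888 ± 291 CPM after Nop16 siRNA, was far above that of the Gapdh model. Of the 35 copies with enough counts to test, 20 fell and 0 rose in edgeR's test. Summed with its copies, Gapdh gave a log2 change of -0.25 (SE 0.0245, edgeR adjusted p = 1.36e-13). Because 1 fragment can be counted at many of these loci, neither the level nor the locus can be read from them, but each tested copy above 10 CPM had a log2 change below 0. In all, 15 of the 37 genes had a matched copy. Apart from Gapdh, Eno1, Pgam1 and Bnip3l, those copies summed to at most 4.11% of the gene's own control level.

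**Figure D3:**
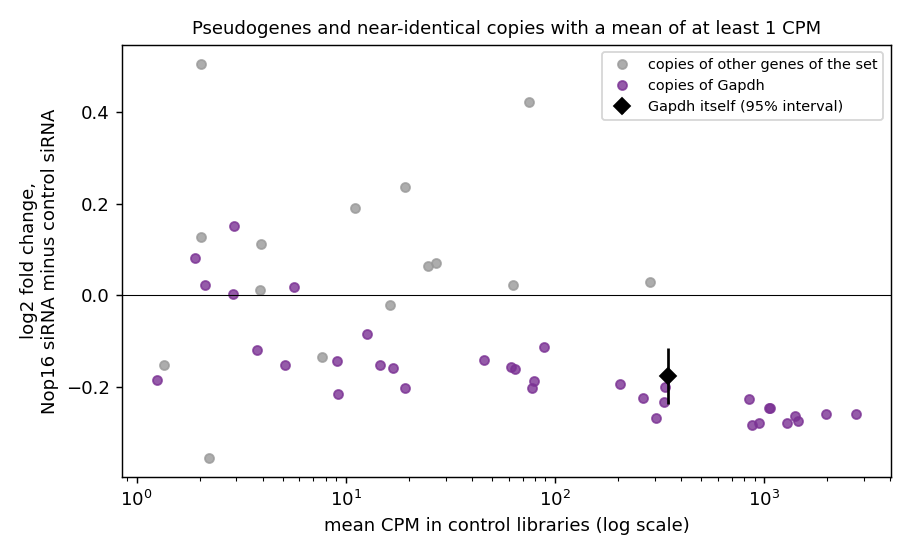
Log2 change against mean control CPM (log scale) for pseudogenes and near-identical copies with at least 1 CPM. Copies of Gapdh (purple) above 10 CPM all lie below 0, as does Gapdh itself (black diamond, with its 95% interval); copies of other genes (grey) lie on both sides.

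At the fork after pyruvate, the lactate side did not pass and the kinase Pdk1 changed most. Ldha, the lactate dehydrogenase subunit that favours lactate formation and a classic HIF-1α target, measured 1042, 1036 and 1037 CPM in the control siRNA libraries and 1016, 1018 and 1002 CPM in the Nop16 siRNA libraries. The values after Nop16 siRNA were the lower ones without overlap, by little, and the scaled change was -0.01 (95% interval -0.07 to 0.04, edgeR adjusted p = 0.695). Ldhb, the other subunit, was near the lower end of what was tested, at 0.937 ± 0.167 and 0.791 ± 0.296 CPM (log2 -0.21, adjusted p = 0.698).

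Pdk1 (ENSMUSG00000006494, chr2:71873224-71903858, plus strand) encodes a kinase that inactivates pyruvate dehydrogenase and is another HIF-1α target. It stood at 98.8, 101.3 and 96.6 CPM in the control siRNA libraries and 55.8, 59.7 and 55.8 CPM in the Nop16 siRNA libraries. The highest Nop16 siRNA value was far below the lowest control, and Pdk1 fell to 58.6% of the control level (log2 change -0.77, SE 0.0472, edgeR adjusted p = 1.86e-21), the largest fall in the set. Pdk3 fell from 17.9 ± 0.664 to 14.3 ± 0.942 CPM (log2 -0.29, adjusted p = 0.00649) and Pdk2 measured 11.8 ± 1.40 and 12.3 ± 1.10 CPM (log2 0.09, adjusted p = 0.545). The enzyme complex that these kinases act on moved in part: Pdha1, its E1 alpha subunit, fell from 55.3 ± 2.97 to 44.9 ± 1.22 CPM (log2 -0.28, adjusted p = 3.69e-05). Pdhb, the E1 beta subunit, measured 74.6 ± 5.88 and 72.6 ± 4.26 CPM (log2 -0.02, adjusted p = 0.803), and Dlat, the E2 core, 77.2 ± 1.65 and 72.1 ± 1.53 CPM (log2 -0.08, adjusted p = 0.181).

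Of the 3 tested genes of HIF-1α and its control, 2 rose. Hif1a, whose protein rather than transcript is the oxygen-regulated step, rose from 67.0 ± 3.86 to 80.8 ± 1.60 CPM (log2 0.29, adjusted p = 9e-07), and the overlapping model Gm49321 shares 2.51% of its exon length. Vhl, the ubiquitin ligase subunit that marks hydroxylated HIF-1α for destruction, measured 29.7, 29.0 and 29.1 CPM in the control siRNA libraries and 32.5, 37.5 and 37.2 CPM in the Nop16 siRNA libraries. Its groups were apart, with the first Nop16 siRNA library closest to the controls, and Vhl rose 1.24-fold (log2 change 0.31, SE 0.0710, edgeR adjusted p = 0.000191). Egln1, the main prolyl hydroxylase that senses oxygen, measured 123, 124 and 124 CPM in the control siRNA libraries and 133, 124 and 116 CPM in the Nop16 siRNA libraries. The Nop16 siRNA values bracketed the controls (log2 change 0.03, 95% interval -0.05 to 0.11, edgeR adjusted p = 0.591). Egln3, a hydroxylase gene that HIF-1α induces, had 1 count in 1 control library and 0 in the others, under the limit of 3 counts, which is 0.13 to 0.192 CPM by library.

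Among HIF-1α targets outside the glycolytic route, Ankrd37, which encodes an ankyrin repeat protein, moved most. Ankrd37 (ENSMUSG00000050914, chr8:45996902-46005707, minus strand) measured 51.3, 58.6 and 62.7 CPM in the control siRNA libraries and 97.8, 103 and 93.7 CPM in the Nop16 siRNA libraries. P4ha1, a subunit of the hydroxylase that matures collagen with the highest CPM of these targets, measured 102, 104 and 102 CPM in the control siRNA libraries and 126, 123 and 125 CPM in the Nop16 siRNA libraries. Neither gene's groups overlapped, and control values of Ankrd37 spread more than those of P4ha1. Ankrd37 rose 1.73-fold (log2 change 0.79, SE 0.0537, edgeR adjusted p = 3.39e-16) and P4ha1 1.23-fold (log2 change 0.30, SE 0.0393, edgeR adjusted p = 2.17e-09). Bnip3l, a mitophagy receptor, rose from 100.7 ± 2.35 to 117 ± 2.10 CPM (log2 0.23, adjusted p = 2.09e-06). Its relative Bnip3 measured 79.9 ± 3.93 and 79.3 ± 1.28 CPM (log2 0.01, adjusted p = 0.873). Vegfa, the angiogenic growth factor, was barely detected at 1.26 ± 0.414 and 1.40 ± 0.180 CPM (log2 0.19, 95% interval -0.45 to 0.82, adjusted p = 0.674). Of the 5 genes in this group 3 rose and 0 fell.

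HIF binds DNA at sites with the core ACGTG or GCGTG, so promoter windows of 300 bases (250 before to 50 after the annotated start, RefSeq on GRCm38.p6) were searched on both strands. Of the 37 genes 35 had a window. ACGTG lay in the window of 23 of 35 genes (65.7%), against 21.8% of 27025 genes with a window and 29.6% of the 9444 tested genes with one. GCGTG lay in 62.9% of the set and in 35.2% and 56.1% of those backgrounds. Within the set, ACGTG was found for 9 of 15 genes that rose, 3 of 6 that fell and 11 of 14 that did not pass or were not tested, and GCGTG for 10 of 15, 4 of 6 and 8 of 14. Counted per window, of which some genes have several, ACGTG lay in 52.0% of the 50 windows of the set and 19.6% of all 32851. Many genes of the set are textbook HIF targets, so this share is no independent finding. CACGTG, the E-box bound by other factors, contains ACGTG on both strands and lay in 17.1% of the set against 8.09% and 11.9%. A match is a string of letters and says nothing of binding. The windows of Ankrd37 and Slc2a1 (rose), Pdk1 (fell) and Ldha (not passed) are printed as examples of each outcome, 5′ to 3′ along the gene, with ACGTG or its reverse complement CACGT in capitals. Ankrd37 (chr8:45999801-46000100, minus strand) has ACGTG 241 and 6 bases before its start, Slc2a1 (chr4:119108495-119108794, plus strand) has 1 at 36 bases before, and Pdk1 (chr2:71872974-71873273, plus strand) has no ACGTG. All printed windows hold GCGTG on either strand, with 2 matches each for Ankrd37, Pdk1 and Ldha and 1 for Slc2a1. Ldha (chr7:46845554-46845853, plus strand) has 5 matches, at 145, 144, 48, 47 and 34 bases before its start, of which 4 lie within CACGTG. Pdk1 and Ldha each have another window farther along the gene, without ACGTG, which is not printed, and GCGTG is not marked. The starts are those of RefSeq, and the printed ones of Ankrd37 and Ldha lie well inside the counted gene models, not at their 5′ ends.
Ankrd37: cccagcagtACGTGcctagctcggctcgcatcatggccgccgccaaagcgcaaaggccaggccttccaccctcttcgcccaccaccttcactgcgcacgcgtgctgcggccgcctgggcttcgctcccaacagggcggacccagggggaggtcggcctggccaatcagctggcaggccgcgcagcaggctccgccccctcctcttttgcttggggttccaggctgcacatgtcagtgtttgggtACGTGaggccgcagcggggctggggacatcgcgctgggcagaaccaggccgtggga
Slc2a1: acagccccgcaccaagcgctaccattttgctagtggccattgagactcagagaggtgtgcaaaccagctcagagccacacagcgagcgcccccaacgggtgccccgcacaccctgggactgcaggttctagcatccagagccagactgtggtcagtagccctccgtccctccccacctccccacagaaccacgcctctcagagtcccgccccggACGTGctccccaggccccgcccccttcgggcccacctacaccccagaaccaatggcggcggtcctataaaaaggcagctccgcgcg
Pdk1: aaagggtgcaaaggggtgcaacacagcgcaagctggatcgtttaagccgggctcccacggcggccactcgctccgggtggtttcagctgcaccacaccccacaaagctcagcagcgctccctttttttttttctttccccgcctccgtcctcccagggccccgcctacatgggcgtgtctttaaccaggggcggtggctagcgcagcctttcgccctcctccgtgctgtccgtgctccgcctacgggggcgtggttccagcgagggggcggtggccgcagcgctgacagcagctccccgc
Ldha: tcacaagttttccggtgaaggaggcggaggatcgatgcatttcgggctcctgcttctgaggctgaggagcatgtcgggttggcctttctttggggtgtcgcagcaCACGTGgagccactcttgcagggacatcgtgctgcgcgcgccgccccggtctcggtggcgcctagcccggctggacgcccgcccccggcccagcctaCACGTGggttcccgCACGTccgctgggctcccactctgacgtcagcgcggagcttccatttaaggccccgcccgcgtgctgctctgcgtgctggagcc

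Isoform make-up was compared per length, as shares of each family's CPM per kb, in 10 families. In 7 of them at least 1 isoform had shares that did not overlap between groups, and this held for 15 of 23 isoforms. Of all tested genes 52.6% do not overlap in CPM, but that share is per gene and no background for families or for dependent shares. In a family of 2 isoforms the shares mirror each other. The exact permutation test on 3 against 3 libraries cannot go below p = 0.1, two-sided, which these reached (0.143 after Benjamini-Hochberg adjustment over the 10 families), so none can pass 0.05. Pdk1 held 54.3 ± 1.84% of the Pdk family in the controls and 43.7 ± 1.56% after Nop16 siRNA, while Pdk2 went from 15.9% to 23.1% and Pdk3 from 29.8% to 33.3%. The Pdk sum itself went from 23.4 ± 0.295 to 16.8 ± 0.913 CPM per kb, so the larger Pdk2 share stands beside a Pdk2 level that did not pass the test. Slc2a3 took 9.11 ± 0.550% and 10.9 ± 0.699% of the sum of Slc2a1 and Slc2a3. Eno2 went from 26.3% to 28.4% of the sum of Eno1 and Eno2, which leaves out Eno3 and Eno1b. Bnip3l went from 42.5% to 46.3% of its pair. For Pfkl, Pfkp, both Pfkfb genes, the lactate dehydrogenases and the Egln genes, shares overlapped.

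**Figure D4:**
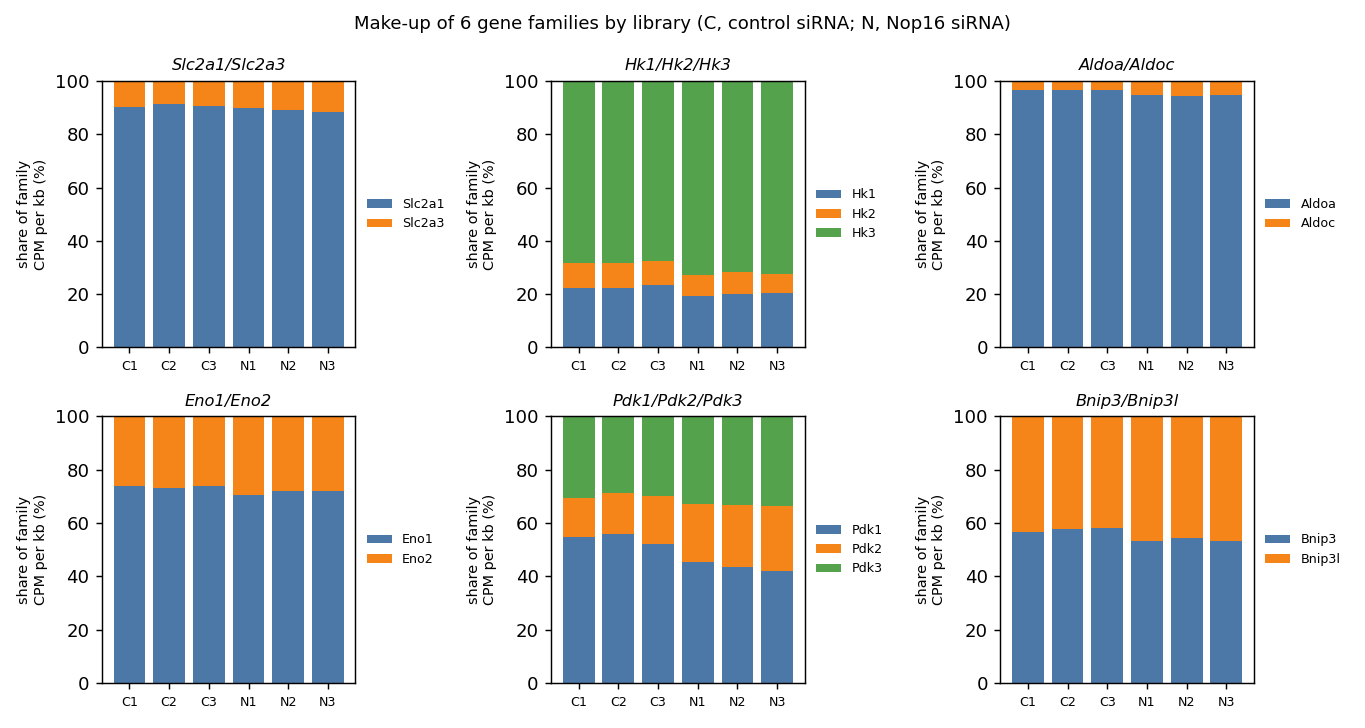
Share of each family's CPM per kb held by each isoform in the 6 libraries (C, control siRNA; N, Nop16 siRNA), stacked to 100%. Hk3 and Aldoc take larger shares in all 3 Nop16 siRNA libraries and Pdk1 a smaller one.

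Genes of the same pathways outside the set were read from 5 lists, whose shares called are set beside the 45.4% of all tested genes and the 64.4% of those averaging 30 CPM or more. Among 15 tested glycolytic isoforms and hexose carriers 5 rose and 2 fell (46.7% called, median log2 change 0.11). Slc2a6, a hexose carrier of the lysosome in macrophages, led them from 121 ± 3.92 to 277 ± 5.82 CPM (2.33-fold, log2 change 1.22, SE 0.0349, edgeR adjusted p = 3.14e-37). Tigar, a fructose bisphosphatase that damps glycolysis, and Minpp1, an inositol phosphate phosphatase, rose by log2 0.35 and 0.43, and Eno3, the muscle enolase, fell by 0.42. Of 12 tested genes of pyruvate and lactate handling 4 rose and 1 fell (41.7% called, median 0.09). The pyruvate dehydrogenase phosphatases Pdp1 and Pdp2, which undo what the Pdk kinases do, rose by log2 0.42 and 0.52 (edgeR adjusted p = 0.00214 and 7.27e-06). Bsg, the chaperone of lactate carriers, rose by log2 0.32, and the lactate carrier Slc16a1 fell from 19.8 ± 0.950 to 13.6 ± 0.674 CPM (log2 -0.52, adjusted p = 1.97e-06). Slc16a3, the carrier known for lactate export, rose from 8.40 ± 1.27 to 10.1 ± 1.52 CPM with groups that overlap (log2 0.31, adjusted p = 0.046). It is outside the rule for named genes and was added after its values were seen.

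The pentose phosphate pathway, which draws off glucose 6-phosphate to make NADPH and ribose, was called in both directions. All 8 genes of this list were called, 6 lower and 2 higher (median -0.19). The 4 with the largest changes fell: H6pd at -0.39, Pgls at -0.21, Rpe at -0.51 and Rpia at -0.27 on the log2 scale, the groups of Pgls and Rpia overlapping in CPM. The 2 that rose, added after their values were seen, were the NADPH-making enzyme genes G6pdx (log2 0.19, adjusted p = 3.4e-06) and Pgd (log2 0.16, adjusted p = 4.87e-05). Of 18 tested genes that control HIF 6 rose and 4 fell (55.6% called, median 0.01). The largest changes were rises, of Hsp90aa1, a chaperone (log2 0.59), the deubiquitinase gene Usp20 (0.44), Epas1, which encodes HIF-2α (0.35), and Cited2, a competitor of HIF for its co-activator (0.30). The 4 that fell, added after their values were seen, were Arnt, the DNA-binding partner of HIF (-0.27), the co-activator gene Ep300 (-0.24), Limd1 (-0.19) and the chaperone gene Hsp90ab1 (-0.22, from 1687 ± 29.8 to 1428 ± 10.8 CPM). Of 29 further HIF targets tested 8 rose and 10 fell (62.1% called, median -0.08). Plod2, a collagen lysyl hydroxylase, rose by log2 0.73 and Insig2, which restrains sterol synthesis, by 0.39, while Plod1, another lysyl hydroxylase, fell by 0.32. Members of this list thus changed in both directions.

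**Figure D5:**
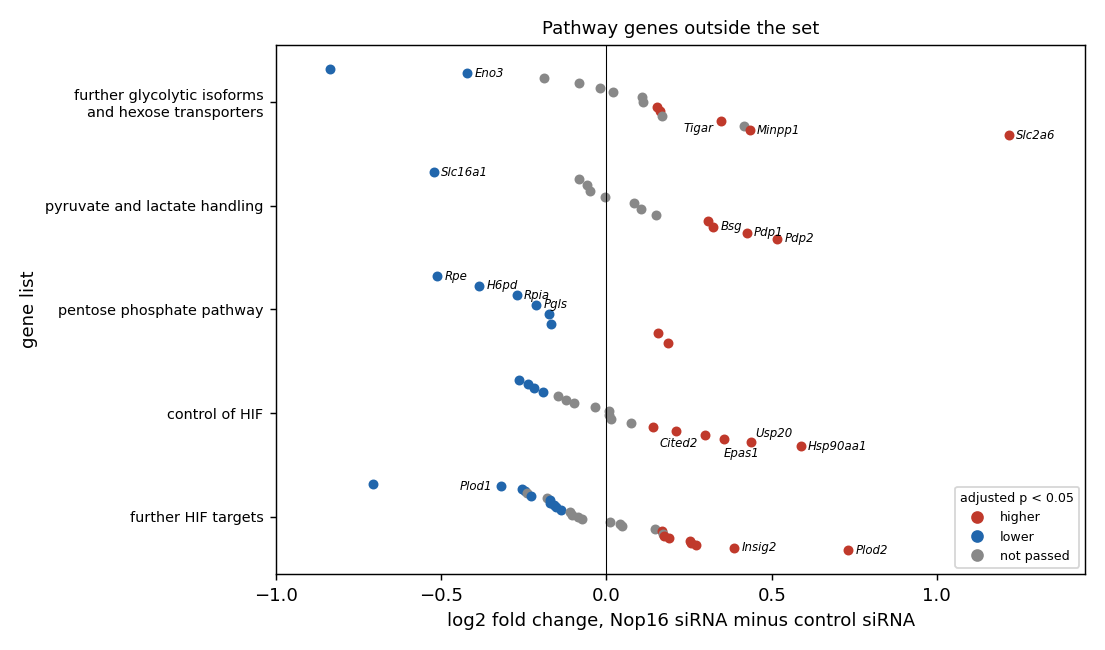
Log2 change of each tested gene in 5 pathway lists outside the set, spread within a list for legibility, coloured by call at an adjusted p below 0.05. Slc2a6 lies farthest right, 6 of 8 pentose phosphate genes lie below 0, and further HIF targets spread over both sides.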

How the data were processed

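Poly(A)-selected RNA from 6 RAW264.7 samples was sequenced with a directional library kit, per the labels' protocols. The deposited values are raw counts per gene, made by the authors with featureCounts 2.0.1 in paired mode on filtered Ensembl release 101 models of GRCm38, per the file headers (the filter is not described there). Properly paired fragments were counted with strand setting 2 and at least 10 bases of overlap, and the same headers show counting of multi-mapped and multi-overlapping fragments, so a fragment can count for several genes. Per the submitters' processing notes, reads went through HISAT2 2.2.1 and Trim Galore, for which the sources used here give no version.

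Symbols were matched for 55141 of 55401 identifiers. Samples were grouped by their titles. Libraries of 1 group differed by more than sampling noise (chi-square over its degrees of freedom 2.51 to 3.14 for each pair). Counts were tested with edgeR 4.0.16 (R 4.3.3): filterByExpr, TMM, robust quasi-likelihood fit of all 6 libraries, Benjamini-Hochberg adjusted p below 0.05 over 14269 genes. The SE is the absolute log2 change over the root of F, and 95% intervals rest on it. A floor is 3 counts and covers counting error only. CPM use total counts, and CPM per kb divide by the merged exon length in the count tables. Copies were found with BLAST 2.17.0 among GENCODE M21 transcripts (at least 85% identity over 50% of a pseudogene, or 95% for coding genes). The test was run on simulated data first. Alternatives were DESeq2 1.42.0, limma-voom (limma 3.58.1), RLE, upper quartile or no scaling, no filter, a replicate block, leaving out each library and, added after seeing the data, thinning to equal depth.

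The genes and pathway lists were chosen with earlier results of these data known. Every gene of the set is named. Values in each library are given for genes past the threshold with an absolute log2 change of at least 0.3 and for the most abundant gene of each role group. From each pathway list up to 4 called genes averaging 5 CPM or more and the largest change are named. Some of these are not reported here. Of 112 list entries, 3 are other names of listed genes or members and matched no row.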

Additional observations from a re-analysis of the deposited data

How the results depend on the processing

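The set kept 17 genes higher under every alternative except 18 without Nop16 siRNA library 3, and 6 lower except 7 when scaled by total counts alone and 8 without control library 1. Leaving out 1 library gave 17 to 18 higher and 6 to 8 lower, and 2918 to 3039 and 2899 to 3010 over all genes. Of the log2 changes recomputed, 616 kept direction and call, 4 newly passed (given beside Hk2, Pfkm and Pgk1) and 7 changed sign, all of genes that did not pass. With 1 library left out, Ldhb ranged from -0.46 to 0.070, Pdhb from -0.063 to 0.046, Egln1 from -0.019 to 0.072, Vegfa from -0.064 to 0.34 and Bnip3 from -0.026 to 0.045. Scaling by total counts alone put Bnip3 at -0.012, shifted the median of all genes by -0.02 and made 45.9% of calls higher in place of 50.7%. The cause was not tested. The families whose first-named isoform had shares without overlap numbered 6 of 10, and 6 to 8 with 1 library left out.

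No sign of pairing by replicate number was seen. Deviations from the group means correlated at -0.0231, 0.0171 and -0.0659 between same-numbered libraries (10791 genes), and no library correlated best with its own number. Such correlations cannot show whether the samples were paired by design. With replicate number as a block, 17 genes of the set were higher and 6 lower, and over all genes 3241 were higher and 3188 lower, against 3287 and 3195 without it.

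Vegfa and Ldhb, near 1 CPM, have intervals too wide to show a change of the size seen in Slc2a1. In groups of 3 libraries no outlier test was run.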

Other observations

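Gapdh is a common reference for relative transcript levels, and the count at its gene model was lower after Nop16 siRNA. Dividing by it raises the log2 difference between the groups by the same amount for every gene. As a ratio to the Gapdh count, 44.5% of the 14255 other tested genes with counts in all libraries were higher in all 3 Nop16 siRNA libraries than in all 3 controls and 1711 of them were lower, where in CPM 24.1% and 28.5% of all tested genes were. In the set, 25 of 35 genes were higher by that ratio and 1 (Pdk1) was lower. Pkm and Ldha, which did not pass in the edgeR fit, had log2 ratios to Gapdh of 0.15 (SE 0.0225) and 0.16 (SE 0.0348).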
